A study of Mus musculus with 26 samples.

Results

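The cells described here are 14 of 26 single mouse retinal amacrine cells, each measured on 1 Affymetrix Mouse 430 2.0 array. They were chosen by a signal of at least 1000 for Slc6a9, with 1 probe set per gene, and split by Gad2 at the same signal into 7 cells with Gad2 and 7 cells without. Signals are linear intensities in arbitrary units, on arrays whose trimmed mean is 500, and a gene is called detected here at a signal of 1000. The other 12 cells lacked Slc6a9 by this rule: 7 of them had Gad2 and 5 had neither gene. Cells had been isolated by green fluorescence after a pNdrg4 or pSynapsin GFP reporter was electroporated into the retina. The design text gives P0 for that step, an age that the label of the E19 cell precedes. No label ties a cell to an animal, a retina or a culture dish, so each side counts as 1 sample. No p-value or standard error is given, and every comparison is a description of these cells.

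The 7 cells with Gad2 were the P8 pSynapsin cell B3, the P8 pNdrg4 cell A1, the P5 pNdrg4 cells C1, D3 and D5, the P5 pSynapsin cell E4, and the P5 pNdrg4 cell B4 for which no culture is stated. The 7 cells without Gad2 were the P8 pSynapsin cell B4, the P8 pNdrg4 cell A2, the P5 pSynapsin cells E1, E2 and E3, and the P5 pNdrg4 cells A6 and B1 for which no culture is stated. All P8 cells came from retinas cultured for 8 days, the remaining P5 cells from retinas cultured for 5 days, and the P4 and E19 cells, all of them among the other 12, from retinas cultured for 4 days. The 4 groups of P8 pSynapsin, P8 pNdrg4, P5 pSynapsin and P5 pNdrg4 cells with no culture stated thus held both sides, with 4 cells with Gad2 and 7 without. The 3 cultured P5 pNdrg4 cells C1, D3 and D5 all had Gad2 and had no partner of the same label without it, so that for them Gad2 and the label cannot be told apart. Reporter labels were uneven as well: 5 cells with Gad2 carried pNdrg4 and 2 carried pSynapsin, against 3 and 4 cells without Gad2. The P4 pNdrg4 cells and the E19 pSynapsin cell all lacked Slc6a9. A cell named B4 occurs on each side, and they are told apart below as P5 B4, with Gad2, and P8 B4, without.

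Amacrine cells shape signals between bipolar and ganglion cells by inhibition, and most release either glycine or GABA. Slc6a9 encodes GlyT1, the plasma membrane glycine transporter that marks glycinergic amacrine cells, while Gad2 and Gad1 encode GAD65 and GAD67, the enzymes that make GABA from glutamate. Slc32a1 encodes the vesicular transporter that loads either transmitter into synaptic vesicles, so it is shared by glycinergic and GABAergic neurons. GAD65 is mostly found at synaptic terminals and GAD67 throughout the cell, and mature GABAergic neurons commonly hold both.

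Because Gad2 was seen without Gad1 in all 7 cells of one side, the stretches around the starts of both genes and of Slc6a9 are shown. They are from RefSeq on GRCm38.p6, all on the plus strand, and run from 250 bases before to 50 after a start site. Capitals mark the E-box letters CANNTG, which bHLH factors such as Nhlh2 and the Neurod proteins can bind and which read the same on both strands. The Gad2 stretch lies at chr2:22622077-22622376, the Gad1 stretch at chr2:70561879-70562178, and the Slc6a9 stretch, at 1 of 3 annotated starts, at chr4:117835008-117835307.
Gad2: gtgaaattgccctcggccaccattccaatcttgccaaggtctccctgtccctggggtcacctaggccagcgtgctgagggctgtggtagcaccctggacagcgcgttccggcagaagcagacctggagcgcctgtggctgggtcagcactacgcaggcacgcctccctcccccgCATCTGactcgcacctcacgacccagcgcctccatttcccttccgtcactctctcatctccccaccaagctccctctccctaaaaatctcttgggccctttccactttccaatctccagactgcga
Gad1: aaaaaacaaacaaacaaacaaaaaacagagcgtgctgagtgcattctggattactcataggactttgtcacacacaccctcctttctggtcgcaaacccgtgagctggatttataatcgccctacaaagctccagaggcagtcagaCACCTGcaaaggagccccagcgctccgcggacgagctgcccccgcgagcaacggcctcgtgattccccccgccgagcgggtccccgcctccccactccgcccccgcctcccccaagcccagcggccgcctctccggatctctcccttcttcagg
Slc6a9: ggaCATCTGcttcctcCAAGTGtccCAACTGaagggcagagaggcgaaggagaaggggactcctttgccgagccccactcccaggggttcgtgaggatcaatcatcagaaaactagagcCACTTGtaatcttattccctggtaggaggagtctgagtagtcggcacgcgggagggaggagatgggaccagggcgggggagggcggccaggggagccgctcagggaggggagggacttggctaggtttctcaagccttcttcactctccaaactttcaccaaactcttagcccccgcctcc

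The Gad2 and Gad1 stretches each held 1 E-box and the Slc6a9 stretch held 4. Of 32851 RefSeq mouse promoter stretches of the same length, 72.3% held at least 1. The AP-2 letters GCCNNNGGC, also the same on both strands, occurred 2 times in the Gad2 stretch and in neither of the others, against 16.6% of all stretches with a match. The homeodomain letters TAATTA occurred in none of the 3, against 5.29% of all. These are matches of letters and not sites shown to be bound.

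The Gad2 signal was 1600, 2127, 2513, 2898, 3950, 7754 and 8488 in B3, P5 B4, D3, A1, D5, E4 and C1, the cells with Gad2. In the cells without Gad2 it was at most 96 in 6 cells and 874 in A2, the P8 pNdrg4 cell. The 7 Gad2 cells without Slc6a9 spanned 1213 to 25921, with a median of 4929. Because the split was made on Gad2, these values only describe it. The cell just inside the threshold was B3 and the cell just outside was A2, so A2 stood between the sides. The split left 50.0% of Slc6a9 cells with Gad2, a share set by the rule.

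Slc6a9 itself had similar ranges on both sides. It was 2877, 10854, 12900, 13182, 14042, 15823 and 23213 in the cells P5 B4, B3, D5, A1, D3, E4 and C1 with Gad2. In the cells without Gad2 it was 2022, 10323, 11314, 15300, 15332, 16123 and 18517 in E1, E2, A2, A6, P8 B4, B1 and E3. Each side therefore had 1 cell far below its others. The cell just outside the Slc6a9 threshold was the cultured P5 pNdrg4 cell D6 at 990, which had a Gad2 signal of 10.

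**Figure D1:**
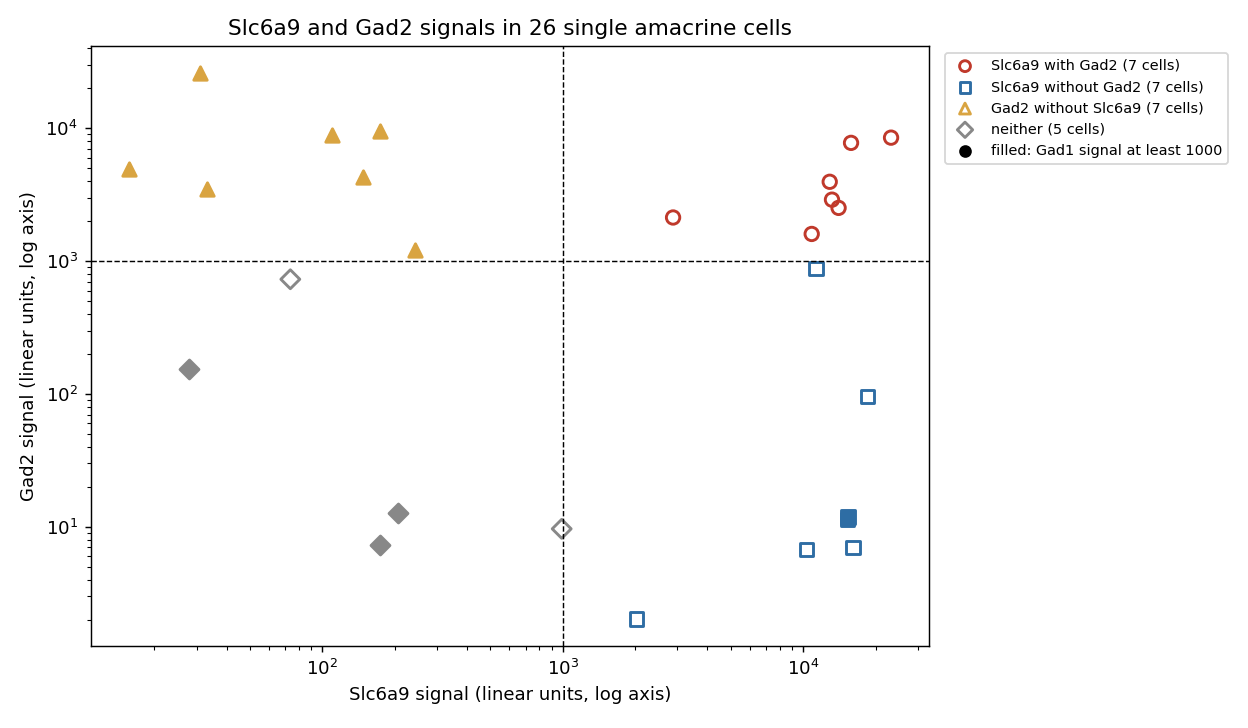
Slc6a9 signal (x axis) against Gad2 signal (y axis) in all 26 cells, in linear units on log axes, with 1 point per cell. Dashed lines mark the signal of 1000 that made the split, and filled points are cells with Gad1 of at least 1000. All 7 Slc6a9 cells with Gad2 (circles) are open and all 7 Gad2 cells without Slc6a9 (triangles) are filled. The open square of the P8 pSynapsin cell B4 lies almost under the filled square of the P5 cell A6.

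Gad1 was missing from every Slc6a9 cell with Gad2. Its signal there was 1.12 at the lowest, 3.88 at the median and 88.9 at the highest, and 0 of 7 cells passed 1000, with an exact Clopper-Pearson 95% interval of 0% to 41.0% that covers counting error only. Among Slc6a9 cells without Gad2, the lowest signal was 1.71, the median 11.6 and the highest 2471, and 1 of 7 passed. That cell was A6, which had Gad1 but a Gad2 signal of 12. All 7 Gad2 cells without Slc6a9 had Gad1, from 6304 to 20606, with a 95% interval of 59.0% to 100%. The Gad2 cells with and without Slc6a9 thus did not overlap in Gad1. How many of all genes did not overlap between these cells was not counted. Labels differed as well: all 7 without Slc6a9 carried pNdrg4, most with no culture stated. Of those with Slc6a9, 5 carried pNdrg4 and 2 carried pSynapsin. Among the 5 cells with neither Slc6a9 nor Gad2, 3 had Gad1. The calls of Gad1 rest on 1 probe set, which passed 1000 in 11 of 26 cells. The other Gad1 probe set passed it in 3 of 26 and read 330 in A6.

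Slc32a1, the vesicular transporter, was detected in 7 of 7 cells with Gad2 and 6 of 7 without. Its signal was 1980, 6216 and 12917 at the lowest, the median and the highest in the cells with Gad2, against 185, 2997 and 8770 without. The ranges overlapped, and the cell below 1000 was A6, the cell with Gad1. A second Slc32a1 probe set read 2177 in A6 and differed by -0.17 between the sides, another differed by 0.30, and neither followed the one used. The mean log2 signal of the Slc32a1 probe set used, computed throughout with signals raised to a floor of 200, was higher by 1.30 in the cells with Gad2, and by 0.80 when the difference was taken within the 4 groups that hold both sides and then averaged.

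The call of Gad2 rests on 1 of its probe sets. The other Gad2 probe set stayed below 1000 in all 26 cells, with a highest signal of 513, and it did not separate the sides. For Slc6a9 a second probe set ranged from 14 to 9169 in the cells with Gad2 and from 940 to 8623 in those without. That probe set was under 1000 in 3 cells with Gad2, namely A1, P5 B4 and D5, and in 1 cell without, E1.

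Across all genes, 7439 entered the comparison, those detected in at least 2 of the 14 cells other than Slc6a9 and Gad2. Of these, 201 genes were higher by at least 2 on the log2 scale (4-fold) in the cells with Gad2, a share of 2.7%, and 143 were lower by as much, a share of 1.92%. The median over all genes was 0.06. These counts belong to the contrast that chose the cells, and nothing is read from them. Without the 3 cultured P5 pNdrg4 cells they were 364 and 179, without the cells with no culture stated 230 and 325, and within the labelled groups 366 (4.92%) and 246 (3.31%). Array coverage overlapped: 3252 to 3999 genes were detected per cell with Gad2, with a median of 3383, against 2250 to 4181 and a median of 3468 without. The low end without Gad2 was A6 and B1, both with no culture stated. They had 2292 and 2250 genes, fewer than any cell with Gad2, and the other cells without Gad2 had at least 3463. The part of this in the differences was not tested.

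There were 3 genes (0.0403%) whose lowest signal with Gad2 was above the highest without: Psmd11, Cdk5 and Zcchc14. Psmd11, a subunit of the lid of the proteasome, had signals of 3303, 7380 and 15091 at the lowest, the median and the highest in cells with Gad2, against 1.91, 15.6 and 2999 without, and a log2 difference of 3.93. The 2 cells without Gad2 above 1000 were E2 and E3, both P5 pSynapsin. Cdk5, a kinase active in postmitotic neurons, had 2117, 3463 and 7951 with Gad2, against 6.84, 9.46 and 1898 without, a difference of 3.64. In Zcchc14, a zinc finger gene, the gap was narrow: 617, 1379 and 3312 with Gad2, against 157, 355 and 499 without, a difference of 2.05. Each gene was read from 1 probe set. Of the 7 other probe sets of Psmd11, 1 differed by 3.03, with overlap between the sides, and the rest by -0.07 to 0.62. The 2 others of Cdk5 differed by -0.38 and 0.04 and the 3 others of Zcchc14 by 0.01 to 0.51.

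The genes closest to Gad2 in their pattern of detection over the 14 cells were Cdk5, Srrm3, Tpm3, Adcy1 and Acvr2a. Each had the same state as Gad2, above or below 1000, in 13 of 14 cells, and no other gene of those compared came as near (5 genes, 0.0672%). Srrm3, a splicing factor of neuronal microexons, had 92.1, 3594 and 4679 with Gad2, against 51.4, 156 and 212 without. Its exception was P5 B4. Adcy1, a calcium-stimulated adenylyl cyclase, had 1221, 2034 and 5591 with Gad2, against 9.49, 163 and 2104 without. Acvr2a, an activin receptor, had 1397, 3162 and 8102 with Gad2, against 2.15, 308 and 11804 without, where the value of the cell E1 was above all those with Gad2. Tpm3, a tropomyosin of the actin cytoskeleton, had 1833, 2859 and 17300 with Gad2, against 10.6, 640 and 5185 without. A2, the cell with the Gad2 signal of 874, was the exception for Adcy1 and Tpm3.

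A set of 185 genes (2.49%, of which 9 have clone symbols) passed 1000 in at least 60% of cells with Gad2 and at most 30% of the others, and the 14 with the widest differences were named. They include Psmd11, Cdk5 and Srrm3. Stk4, a Hippo pathway kinase, was detected in 6 of 7 cells with Gad2 and 1 of 7 without, a difference of 3.47. Cdkn1b, the cell cycle inhibitor p27, was detected in 7 and 2 cells, with signals of 1827, 5822 and 8895 with Gad2, against 6.02, 349 and 5054 without. Pfdn4, a subunit of the prefoldin chaperone, had 1564, 4633 and 5893 with Gad2, against 7.21, 111 and 3961 without. In both genes, cells without Gad2 reached into the range of the cells with Gad2: A2 and E1 for Cdkn1b, and A2 and E3 for Pfdn4.

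Klhl18, an adaptor of the Cullin-3 ubiquitin ligase, was detected in 6 cells with Gad2 and 1 without, a difference of 3.09. The importin family member Ranbp6 had the same counts and a difference of 2.87, as did Frem1, an extracellular matrix protein, with 2.96. Adgrl3, the adhesion receptor latrophilin 3, was detected in 5 cells with Gad2 and 1 without, and differed by 2.87 in all cells but by 1.76 without the 3 cultured P5 pNdrg4 cells. Ctdspl, a phosphatase, was at 5 and 1 cells, and Yipf2, a Golgi membrane protein, at 5 and 0 with 2.92. Tmem35b was at 5 and 0 with 3.18, and Tstd3 at 6 and 2 with 3.32. All 14 stayed past 2 when any 1 cell was left out. Of the 14, 9 have further probe sets, and in 4 of these (Psmd11, Stk4, Yipf2 and Adgrl3) at least 1 of them was also higher by 2 or more. Those of Cdk5, Klhl18, Cdkn1b, Ranbp6 and Srrm3 were not, and the 2 of Srrm3 differed by 0.75 and -0.34.

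**Figure D2:**
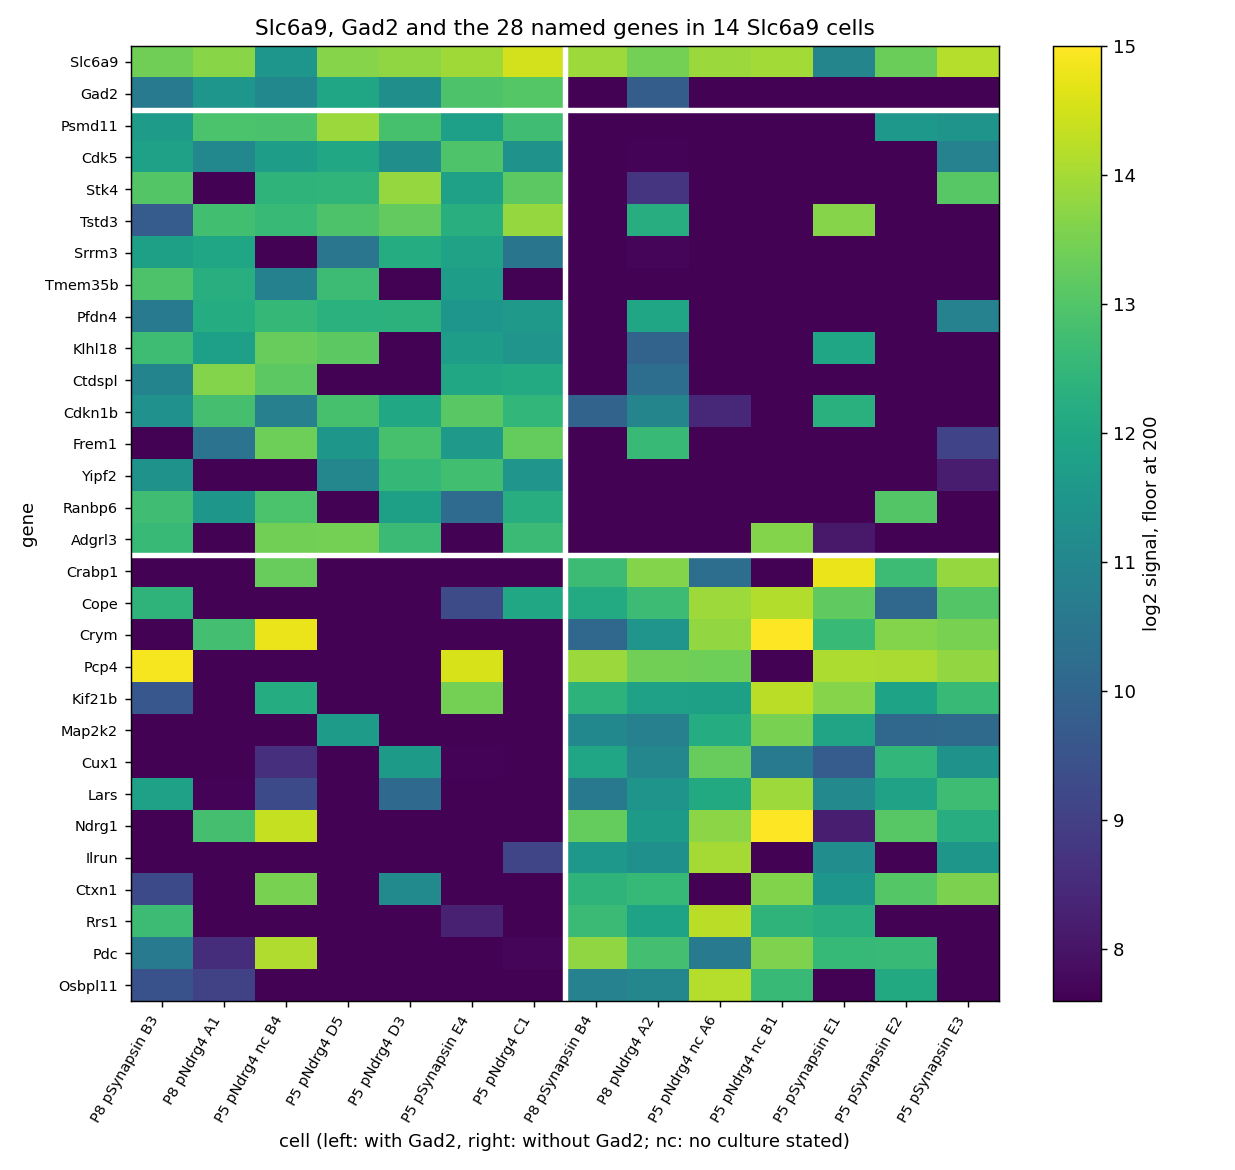
Log2 signals, with a floor at 200, of Slc6a9, Gad2 and the 28 named genes (rows) in each of the 14 Slc6a9 cells (columns), the 7 cells with Gad2 left of the 7 cells without. The colour scale gives log2 signal, and nc marks cells with no culture stated. Genes of the middle block are bright mostly in the cells with Gad2 and those of the lower block mostly in the cells without, with exceptions in single cells on either side.

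On the other side, 113 genes (1.52%) were detected in at least 60% of the cells without Gad2 and at most 30% of the cells with it, and the 14 with the widest differences were named. Crabp1, which binds retinoic acid in the cytoplasm, had 10.9, 37.5 and 10010 in cells with Gad2, against 60.5, 6573 and 28239 without, a difference of -3.77. Its 1 cell with Gad2 above 1000 was P5 B4, and its 1 cell without Gad2 below 1000 was B1, both of the group with no culture stated. Crym, which encodes a thyroid hormone binding protein and is also a Muller glia marker, was detected in 2 of 7 and 7 of 7 cells, with 1.64, 35.9 and 28430 against 1081, 11662 and 42726. Pcp4, a small calmodulin binding protein, had 9.48, 50.6 and 30478 with Gad2, against 95.5, 14348 and 17420 without. Its high cells with Gad2 were the pSynapsin cells B3 and E4, with 30478 and 24019, and all 5 others were under 100.

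Cope, a coatomer subunit of Golgi transport, was detected in 2 of 7 cells with Gad2 and 7 of 7 without, a difference of -3.56. Map2k2, the kinase MEK2, was detected in 1 and 7 cells, with 7.79, 34.7 and 3301 with Gad2, against 1099, 2118 and 11615 without. Cux1, a homeodomain factor, was at 1 and 6 cells with -3.15, and Lars, a leucyl-tRNA synthetase, at 2 and 7 with -3.12. Kif21b, a kinesin, was at 2 and 7 cells with -3.22, and Ndrg1, a relative of the gene whose promoter drives pNdrg4, at 2 and 6 with -3.10. Ctxn1 was at 2 and 6 cells with -2.83, and Ilrun at 0 and 5 with -2.84. Osbpl11, an oxysterol binding protein, was at 0 and 5 cells with -2.76, and Rrs1, a ribosome assembly factor, at 1 and 5 with -2.79. Pdc, the phosducin of photoreceptors, completed the 14 at 2 and 6 cells with -2.79.

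Every one of these 14 stayed past -2 when any 1 cell was left out. Without the 3 cultured P5 pNdrg4 cells, Pcp4 was at -1.71, Kif21b at -1.90, Ndrg1 at -1.83 and Pdc at -1.69. All 3 of those cells had these 4 genes below 1000. Without the cells with no culture stated, Rrs1 was at -1.83 and Osbpl11 at -1.67. Of the 14, 7 have further probe sets, and in 3 of these (Ndrg1, Rrs1 and Osbpl11) at least 1 was also past -2. Those of Kif21b, Ilrun, Map2k2 and Cux1 were not: the other of Map2k2 differed by 0.60, and the 8 others of Cux1 by -1.55 to 0.76.

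The genes without overlap on this side were also 3 (0.0403%). Rrp1, a ribosomal RNA processing factor, had 313, 3301 and 5736 with Gad2, against 6409, 9098 and 19341 without, so it was detected in nearly all cells and differed in level. Sh3bgrl2 had 2.62, 7.82 and 68.2 with Gad2, against 206, 1066 and 3029 without. Fermt3, kindlin-3, had 58.7, 116 and 196 with Gad2, against 207, 402 and 2014 without, mostly below the detection signal. Its 3 other probe sets differed by -0.21, -0.22 and 1.53. The other probe set of Rrp1 differed by -0.42 and that of Sh3bgrl2 by 0.46, both with overlap between the sides.

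Transcription factors of amacrine cells were balanced as a list: of 24 that passed the filter, 12 were higher and 12 lower, with a median of 0.10 against 0.06 over all genes. Pax6, which marks the amacrine lineage, was at 9755 or more in all 14 cells, and Sox4 was detected in all 14. Members past 2 were Nhlh2, Ebf3 and Six6 among the higher and Nfia among the lower. Nhlh2, a bHLH factor, was detected in 6 of 7 cells with Gad2, all but A1, and in 3 of 7 without, with a difference of 2.56. Ebf3, an early B-cell factor found in a subset of amacrine cells, was at 5 and 2 cells and 2.19. Nhlh2 and Ebf3 were detected together in 4 cells with Gad2, against 2 without. Without the 3 cultured P5 pNdrg4 cells Nhlh2 was at 1.56 and Ebf3 at 1.73, and without the cells with no culture stated they were at 1.51 and 1.51.

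Six6, a retinal homeodomain factor, was detected in 6 cells with Gad2, from 2793 to 6685, and in 2 cells without, A6 at 13516 and E2 at 1468. It differed by 2.32 in all cells and by 3.07 within the labelled groups. Among the 12 cells without Slc6a9 the sign was opposite, with -2.53 between cells with and without Gad2. Tfap2a and Tfap2b, the AP-2 factors, were detected together in 4 cells with Gad2 and 3 without.

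Genes known from AII amacrine cells, the narrow-field glycinergic cells of the rod pathway, were lower in the cells with Gad2. All 6 that passed the filter lay below 0, against 3530 of all 7439 genes, and 1 was past -2. Their median was -1.23 in all cells, -0.87 within the labelled groups and -0.68 without the 3 cultured P5 pNdrg4 cells. Car2, 1 of the 6, is also on the Muller glia list below. Leaving out 1 cell moved that median between -1.88 (A1) and -0.78 (C1). Nfia, a nuclear factor I gene, was the member past -2: it was detected in 1 cell with Gad2, A1 at 9585, and in 4 without, with a difference of -2.38, and it was under 2 in size without P8 B4, without B1 or without E2. Gjd2, the connexin 36 of their gap junctions, was at 34051 in A1 and under 1000 in the other 6 cells with Gad2. Without Gad2 it was at 22700, 18709 and 20698 in P8 B4, B1 and E2 and under 50 in the others. Dab1, Nfia, Gjd2 and Neurod2 were detected together in A1 alone of 7 cells with Gad2, in those same 3 of 7 cells without, and in 0 of the other 12 cells. Of these 4 genes, Neurod2 is not on the AII list but among the SEG and nGnG markers below. The combination therefore occurred on both sides of the split, in 1 cell with and 3 cells without Gad2. Dab1 and Nfia were detected together in 1 cell with Gad2 and 4 without.

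Markers of SEG and nGnG amacrine cells, glycinergic and non-glycinergic non-GABAergic types, had 5 members past the filter, 4 higher and 1 lower. Their median was 0.50 and moved between 0.11 (without A6) and 1.32 (without A1). Cbln2, a synaptic organiser, was detected in 3 cells with Gad2, at 4273, 4283 and 9213 in A1, P5 B4 and E4, against 0 cells without, where it was under 20. Its difference of 2.05 was under 2 without any 1 of those 3 cells, and it was 3.59 without the 3 cultured P5 pNdrg4 cells.

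Genes of GABA and glycine handling were mixed in direction. Of 4 GABA genes past the filter 2 were higher and 2 lower, with a median of -0.16, and of 3 glycine genes 2 were higher and 1 lower, with a median of 0.04. Slc6a5, the glycine transporter GlyT2, was detected in 2 cells on each side. Among 9 receptor genes for both transmitters, 5 were higher and 4 lower. Among 10 glutamate receptor genes 7 were higher, with a median of 0.11, and Grik3, a kainate receptor subunit, differed by 2.42, detected in 4 cells with Gad2 and 0 without. The 3 cultured P5 pNdrg4 cells and P5 B4 were those 4, at 4071 to 8486.

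Of 25 presynaptic genes that passed the filter, 5 were higher and 20 lower, against 3909 and 3530 of all 7439 genes, with a median of -0.45 against 0.06 over all genes. Within the labelled groups the median was -0.22, and without the 3 cultured P5 pNdrg4 cells it turned to 0.10. Only Rph3a, the vesicle protein rabphilin, passed 2, with 2.08, and it was at 0.92 without those 3 cells. Adhesion and guidance genes were balanced, with 14 higher and 13 lower, as were ion channels with 10 and 10. Robo3, a guidance receptor, was the exception with 3.25: it was at 33992, 19196 and 18196 in the cultured P5 pNdrg4 cells C1, D5 and D3 and at 6603 in E4, against 1 cell without Gad2, E1 at 1399. Without the 3 cultured cells Robo3 was at 0.86, and E4 was the single remaining cell with Gad2 above 1000. Of 14 calcium binding protein genes 8 were higher and 6 lower. Kcnip3, a calcium sensor of potassium channels, differed by -2.09, detected in 2 cells with Gad2 and 6 without.

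Among immediate early genes Ier5 was at 2.64, detected in 7 and 2 cells, and Btg2 at -2.39, detected in 1 and 5. Ier5 fell to 1.41 and Btg2 to -1.81 in size without the 3 cultured P5 pNdrg4 cells. Of 18 immature neuron genes 9 were higher and 9 lower. Of 16 hypoxia and glycolysis genes 4 were higher and 12 lower, against 3909 and 3530 of all 7439 genes, with a median of -0.51. That median was -0.28 within the labelled groups and -0.26 without the cells with no culture stated. Of 12 housekeeping genes 2 were higher and 10 lower, with a median of -0.29, or -0.07 within the labelled groups and -0.20 without the cells with no culture stated. Xist, the X inactivation RNA, was detected in 4 cells with Gad2, A1 and the 3 cultured P5 pNdrg4 cells, and in 2 cells without, A2 and E2. It differed by 2.52, but by -0.25 within the labelled groups and by 0.18 without the 3 cultured cells, so cells with Xist were unevenly spread over labels and sides.

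Transcripts of rod photoreceptors were lower in the cells with Gad2. Of 9 rod genes that passed the filter 9 were lower and 5 were past -2, namely Sag, Pdc, Nrl, Pde6g and Crx, against 3530 lower and 143 (1.92%) past -2 of all 7439 genes. Without the 3 cultured P5 pNdrg4 cells all 5 were short of -2: Sag was at -1.72, Pdc at -1.69, Nrl at -1.78, Pde6g at -1.21 and Crx at -1.15. Sag, rod arrestin, was detected in 3 cells with Gad2 and 6 without, with a difference of -3.15. Crx, a photoreceptor homeodomain factor, was detected in 2 and 7 cells. The median was -2.14 in all cells, -1.83 within the labelled groups and -1.21 without the 3 cultured P5 pNdrg4 cells. Leaving out 1 cell kept it between -2.89 and -1.79.

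The summed signal of 13 measured rod genes was 2488, 7660 and 80495 at the lowest, the median and the highest in the cells with Gad2, against 16168, 43719 and 103557 without. The 3 cultured P5 pNdrg4 cells had 2488, 3878 and 6513, the lowest of all 14 cells, whereas P5 B4 had 80495. From 1 to 7 rod genes were detected per cell with Gad2, with a median of 1, and from 3 to 9 without, with a median of 5. Prph2, Gngt1 and Pde6a were under 1000 in all 14 cells.

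Of 8 Muller glia genes that passed the filter 2 were higher and 6 lower, against 3909 and 3530 of all genes, with a median of -1.38 both in all cells and within the labelled groups, and -1.02 without the 3 cultured P5 pNdrg4 cells. Glul, Vim and Crym were past -2, and without those 3 cells Glul was at -1.42 and Vim at -1.33. The list summed to 859, 8190 and 94718 with Gad2, against 11724, 44057 and 104571 without, while Aqp4, Apoe and Kcnj10 were under 1000 in all 14 cells. Of the 2 bipolar cell genes that passed the filter, Pcp2 was detected in 0 and 3 cells with a difference of -2.27 and Prkca in 3 and 1 cells with 0.76, and Vsx1 and Trpm1 were detected in none. The 2 horizontal cell genes that passed, Septin4 with 1.84 and Slc4a3 with 0.97, were both higher, and Lhx1 and Onecut1 were under 1000 in all 14 cells. Nefl and Nefm, the 2 ganglion cell genes that passed the filter, had a median of 1.22 in all cells and -0.08 within the labelled groups, and Rbpms, Thy1 and Sncg were under 1000 in all 14 cells. Cone genes did not pass the filter, and Gnat2 alone was detected, in 1 cell. The part of rod, Muller and other such transcripts in the differences of the other genes was not tested.

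**Figure D3:**
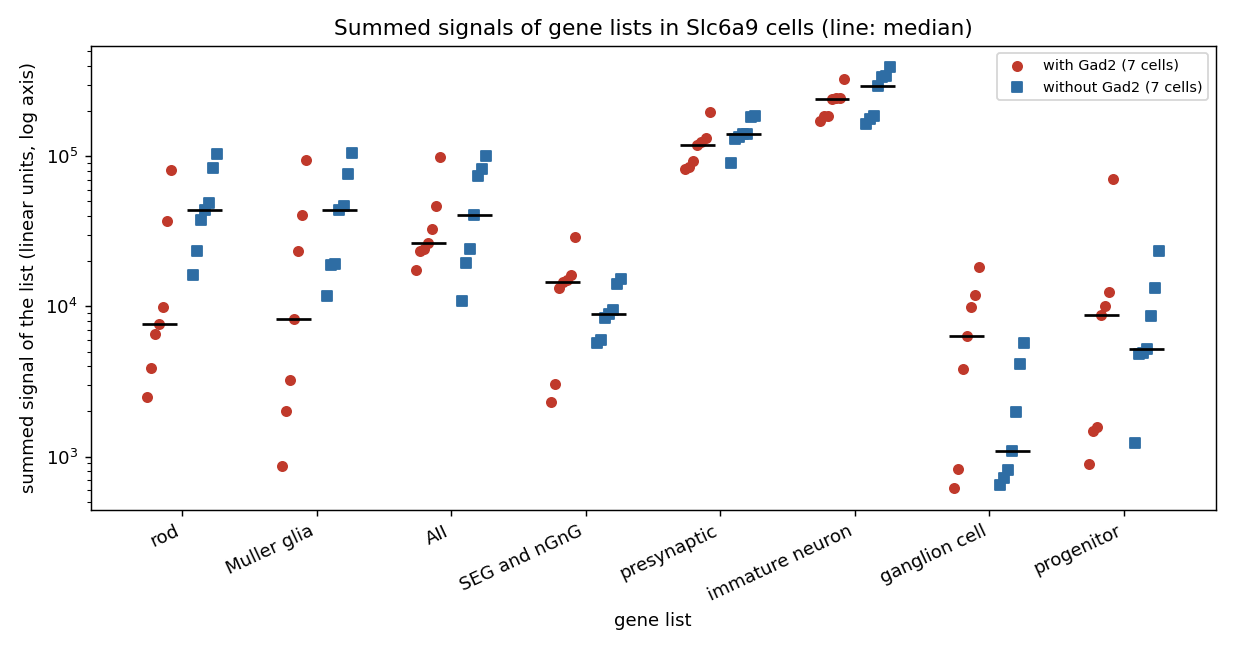
Summed signal (y axis, linear units on a log axis) of 8 gene lists (x axis) in each of the 14 Slc6a9 cells. Circles are the 7 cells with Gad2, squares right of them the 7 cells without, and lines are medians. The rod sums of the cells with Gad2 have a median of 7660, against 43719 without, and the ranges of both sides overlap in every list.

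Within labelled groups, where age, reporter and stated culture are shared, 59 of the 201 higher genes were higher in 4 of 4 groups and 41 of the 143 lower genes were lower in 4 of 4. These genes were chosen by their difference among the same cells, which favours the same direction within the groups, so the counts only describe them. Over all 7439 genes, 270 (3.63%) were higher and 214 (2.88%) lower in 4 of 4 groups. Of the named genes, 9 of the 14 higher and 4 of the 14 lower kept their direction in 4 of 4. Averaged over the groups, 12 of the 14 higher genes and 10 of the 14 lower were still past 2 in size. Psmd11 was at 4.03, Cdk5 at 3.98, Tmem35b at 4.31 and Ctdspl at 4.13, while Frem1 was at 1.75 and Adgrl3 at 1.89. Map2k2 was at -3.72, Cux1 at -3.63, Cope at -3.49 and Crabp1 at -3.20, while Crym was at -1.63, Pcp4 at -1.76, Kif21b at -1.76 and Ndrg1 at -1.99. Each of these 4 groups holds 1 cell with Gad2, and 2 of them also hold 1 cell without. Every difference within a group thus rests on 1 cell with Gad2.

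The 12 cells without Slc6a9, 7 with Gad2 and 5 without, give a comparison over Gad2 that shares no cell with the one above. The sides differ there in Gad1 too, since 7 of 7 and 3 of 5 had it. The E19 pSynapsin cell is on the side without Gad2, and the 2 P4 cells are 1 on each side. Among all 7439 genes, 3511 (47.2%) were higher in those cells with Gad2. The other 3928 (52.8%) were lower or at the floor in all 12 cells, which leaves no difference. Past 2 in size were 283 (3.8%) higher and 296 (3.98%) lower genes. Of the 201 genes higher in Slc6a9 cells with Gad2, 91 were higher in this second comparison. The other 110 were lower or at the floor, and 10 of the 201 were past 2 and 15 past -2. Of the 143 lower genes, 78 were higher and 65 lower or at the floor, with 14 past 2 and 7 past -2. Genes at the floor were not counted apart, so no split of directions is read from these counts.

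Cdk5 differed by -0.46 among the 12 cells, Psmd11 by -0.15, Srrm3 by -0.55, Adcy1 by -1.16, and Tpm3 and Acvr2a by -0.46 each. Of the 14 named higher genes 7 were higher there and 0 passed 2. Of the 14 named lower genes 6 were lower there, and Pcp4 with -2.11 was the single member past -2, while Ctxn1 went the other way with 2.58. The 10 genes past 2 in both comparisons, of 201, were Cbln2, Ddb2, Ddrgk1, Iars, Klhl17, Maf1, Magi1, Pak3, Tipin and Yy1. More of the 201, 15 genes, were past -2 among the 12 cells. The 7 past -2 in both, of 143, were Actr1a, App, Kcnip3, Mphosph9, Pcp4, Sorbs2 and Zbtb34, and 14 of the 143 were past 2 among the 12 cells. Over all 7439 genes 3.8% were past 2 and 3.98% past -2 there, so no recurrence is read from these names. In Cbln2 the differences were 2.05 and 3.47, and in Kcnip3 they were -2.09 and -2.21.

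**Figure D4:**
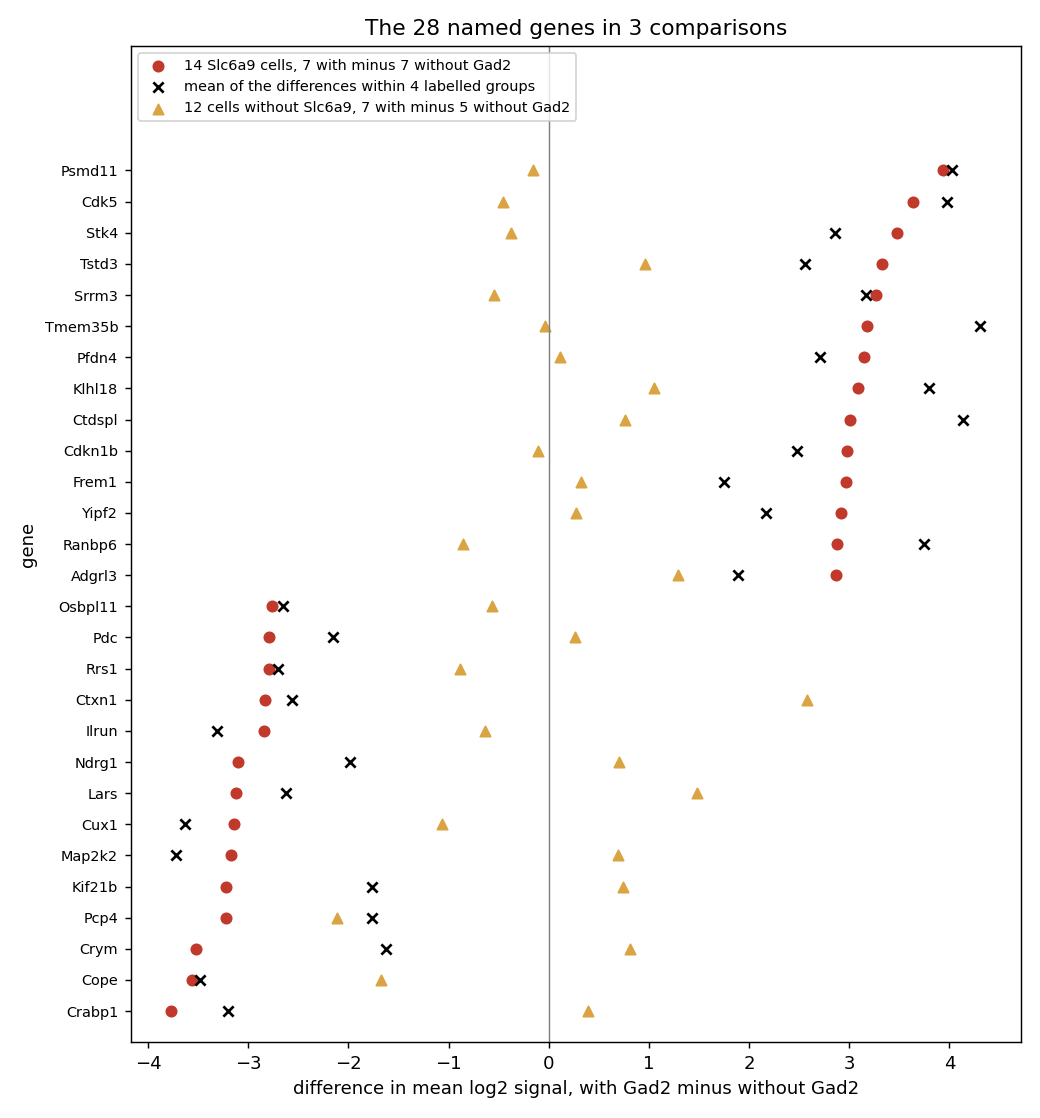
Difference in mean log2 signal, with Gad2 minus without Gad2 (x axis), of the 28 named genes (y axis). Circles are the 14 Slc6a9 cells, crosses the mean over the 4 labelled groups that hold both sides, and triangles the 12 cells without Slc6a9, which share no cell with the others. The circles are past 2 in size by the choice of the genes, the crosses keep their sign, and the triangles lie on both sides of 0, with 7 of the 14 higher genes above it and 6 of the 14 lower genes below it.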

How the data were processed

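The authors deposited 1 linear signal intensity per probe set and cell. The software was MAS5 per the submitters' processing notes, with its version not given in the sources used here. Per the labels' protocols, the RNA of each picked cell was reverse transcribed and its cDNA amplified by 35 cycles of PCR, which can lose low transcripts. Each array's mean trimmed by 2% at each end was 500, so no further scaling was applied. Detection calls were not used here.

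Of 45101 probe sets, 34958 were assigned to 1 gene and 932 to several, which were left out. A gene was read from its probe set with the highest mean log2(max(signal, 200)) over 26 cells, giving 18194 genes. A difference is the mean of these log2 values in cells with Gad2 minus that in cells without. The floor can shorten differences of low genes. Genes were named by rank among those detected in at least 60% of one side and at most 30% of the other, 14 per direction, with list members past 2 and the 5 genes nearest to Gad2 in detection added. Lists held 456 genes, of which 414 were measured. The members, the lists and the rules were chosen with earlier results of these data known. Cells are not replicates of a condition, so no test between the sides was made over cells, and precision is limited by how many arrays there are. The code was tested on simulated data. Alternatives changed the split, probe set, floor, scaling, filter, average and cells. The work used Python 3.11.15 with pandas 2.3.3 and numpy 2.4.6, figures matplotlib 3.10.9, and intervals scipy 1.17.1.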

Additional observations from a re-analysis of the deposited data

Results flagged for a closer look

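Each side was searched for a single cell far from the other 6, in log2 signal with the floor of 200 at 7.64. Of 118 sides 37 were marked, and the 118 include sides with all 7 cells at the floor, which cannot be marked. Chance marks about 1 in 20 sides of normally distributed values. That rate does not hold for floored values of genes chosen by this split, so no excess is read from the count. With 7 single cells a side, a gene on in 1 cell and off in the others is marked too. So is a cell under 1000 when the other 6 lie at or near the floor, such as A2 for Srrm3, E3 for Yipf2 and P5 B4 for Pcp2. High and low below mean relative to those other cells.

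Among the genes of the split, P5 B4 was low for Slc6a9 in cells with Gad2 (11.49) and E1 in cells without (10.98), A2 was high for Gad2 (9.77) and A6 for Gad1 (11.27) in cells without. Among genes higher with Gad2, the high cells without Gad2 were E3 for Cdk5 (10.89), Stk4 (13.07) and Yipf2 (8.16), A2 for Srrm3 (7.73), Ctdspl (10.28) and Frem1 (12.58), E2 for Ranbp6 (13.02), B1 for Adgrl3 (13.64) and E1 for Acvr2a (13.53). The low cells with Gad2 were A1 for Stk4 (7.64), B3 for Tstd3 (9.76), P5 B4 for Srrm3 (7.64) and D3 for Klhl18 (7.64).

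Among genes lower with Gad2, the high cells with Gad2 were P5 B4 for Crabp1 (13.29), D5 for Map2k2 (11.69), D3 for Cux1 (11.63), C1 for Ilrun (9.16) and B3 for Rrs1 (12.67). D5 was the low cell with Gad2 for Rrp1 (8.29). The low cells without Gad2 were B1 for Pcp4 (7.64) and A6 for Ctxn1 (7.64). Among list genes, P5 B4 was the high cell with Gad2 for Btg2 (13.41), Crx (14.20), Pcp2 (8.65) and Vim (14.30), and A1 for Nfia (13.23). A1 was the low cell with Gad2 for Nhlh2 (7.64), and D5 for Six6 (7.64). In cells without Gad2, E2 was high for Crx (13.71), E3 for Grik3 (9.54) and E1 for Robo3 (10.45), while A6 was low for Kcnip3 (7.64) and Sag (8.50).

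Crabp1 ran in opposite directions in the labelled groups with at least 3 Slc6a9 cells. Among P5 pNdrg4 cells of no stated culture, the 1 cell with Gad2 was above both cells without, a difference of 4.33. In the cultured P5 pSynapsin cells, the 1 cell with Gad2 was below all 3 without, a difference of -6.12. The difference between these groups was not tested.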

How the results depend on the processing

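The split itself moved at its edges: at a signal of 500, A2 joined the cells with Gad2, which were then 8, and D6 became a Slc6a9 cell without Gad2, and at 2000 the cell B3 changed side. The counts of genes past 2, 201 higher and 143 lower, depended on the processing. Lower genes were 91 at a split of 500 and 325 without the cells with no culture stated, and higher genes were 364 without the 3 cultured P5 pNdrg4 cells, an alternative chosen after seeing the data. With the median over probe sets they were 100 and 89, with a floor of 50 they were 611 and 400, with a floor of 500 they were 40 and 40, with medians over cells 850 and 606, and within labelled groups 366 and 246. The cause was not tested. Leaving out each cell in turn gave 186 to 289 higher and 134 to 196 lower genes.

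For 54 genes over 29 settings, 1545 of 1548 values kept their sign. These genes were chosen by their difference or pattern in the same cells, which favours the same sign, so the count only describes them. The exceptions were Xist within labelled groups (-0.25), Cbln2 with medians over cells (0) and Fermt3 with its highest probe set per cell (0.20). Of the 53 described genes past 2, 17 were under 2 in size when some 1 cell was left out, and 0 of the 28 named by rank were. They were Btg2, Cbln2, Crx, Ebf3, Glul, Grik3, Kcnip3, Nfia, Nrl, Pcp2, Pde6g, Rph3a, Rrp1, Sh3bgrl2, Vim, Xist and Zcchc14, with sizes no smaller than that of Cbln2 without E4 (1.47). Without the 3 cultured P5 pNdrg4 cells 21 were under 2, 5 of them named by rank. No paired analysis was possible because the cells carry no shared replicate numbers. Background calls were not used here, so a low signal cannot be told from background.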
